A study of Mus musculus with 6 samples.

Results

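The vacuolar proton pump, or V-ATPase, is described here through 10 genes for its core subunits, which were taken by symbol from the 25407 gene rows of the deposited table. They are Atp6v1a, Atp6v1b2, Atp6v1c1, Atp6v1d, Atp6v1e1, Atp6v1f and Atp6v1h of the V1 sector and Atp6v0a1, Atp6v0c and Atp6v0d1 of the V0 sector. All 10 had a row, and all 10 passed the filter on low counts that left 16212 rows to test. The cells were CT26.WT, which grow from a colon carcinoma of the mouse, in 3 control libraries and 3 treated libraries. Treated cells got Cu2O@AuMn@HA, a particle that combines copper(I) oxide with gold and manganese, together with NaHS, which releases hydrogen sulfide, and with NIR (near-infrared light). Their titles name them only as the experimental samples, and the treatment is taken from the series' design text. No other group is analysed here, so the parts of the combined treatment cannot be told apart. The sources used here do not give doses, exposure times, the time of harvest or how control cells were handled. Whether the 3 libraries of a group are separate cultures is not stated either. All p-values therefore rest on the spread between these libraries, which may be technical.

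The pump is a rotary machine. The V1 sector on the cytosolic side binds and splits ATP, and the energy turns a central stalk that is joined to a ring of proteolipid subunits in the membrane-bound V0 sector, which carries protons past the a subunit into the organelle. It acidifies endosomes, the Golgi and lysosomes, and the low pH is needed by lysosomal hydrolases and for the release of iron from transferrin. The lysosomal pump also takes part in the sensing of amino acids by the kinase complex mTORC1, and V1 can come off V0 and rejoin it.

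Most subunit genes were higher in treated cells, and 1 was lower. At an adjusted p under 0.05 (edgeR's quasi-likelihood test), 8 of the 10 genes were higher and 1, Atp6v0a1, was lower, while 1, Atp6v1b2, did not pass. Of all 16212 rows tested, 46.6% passed in either direction, 23.0% as higher and 23.5% as lower (3735 and 3813 rows). With upper-quartile scaling the split of all rows was 4688 higher and 3028 lower. The median log2 fold change of the 10 genes was 0.42, beside 0.06 over all rows tested. The 7 V1 genes had a median of 0.58 and the 3 V0 genes 0.27. In bulk RNA, fewer or more cells of a type and less or more RNA per cell cannot be told apart. FPKM values (fragments scaled to transcript length and to library size) of the groups did not overlap for 9 of the 10 genes, as for 57.5% of all rows tested. The gene whose groups overlapped was Atp6v1c1.

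**Figure D1:**
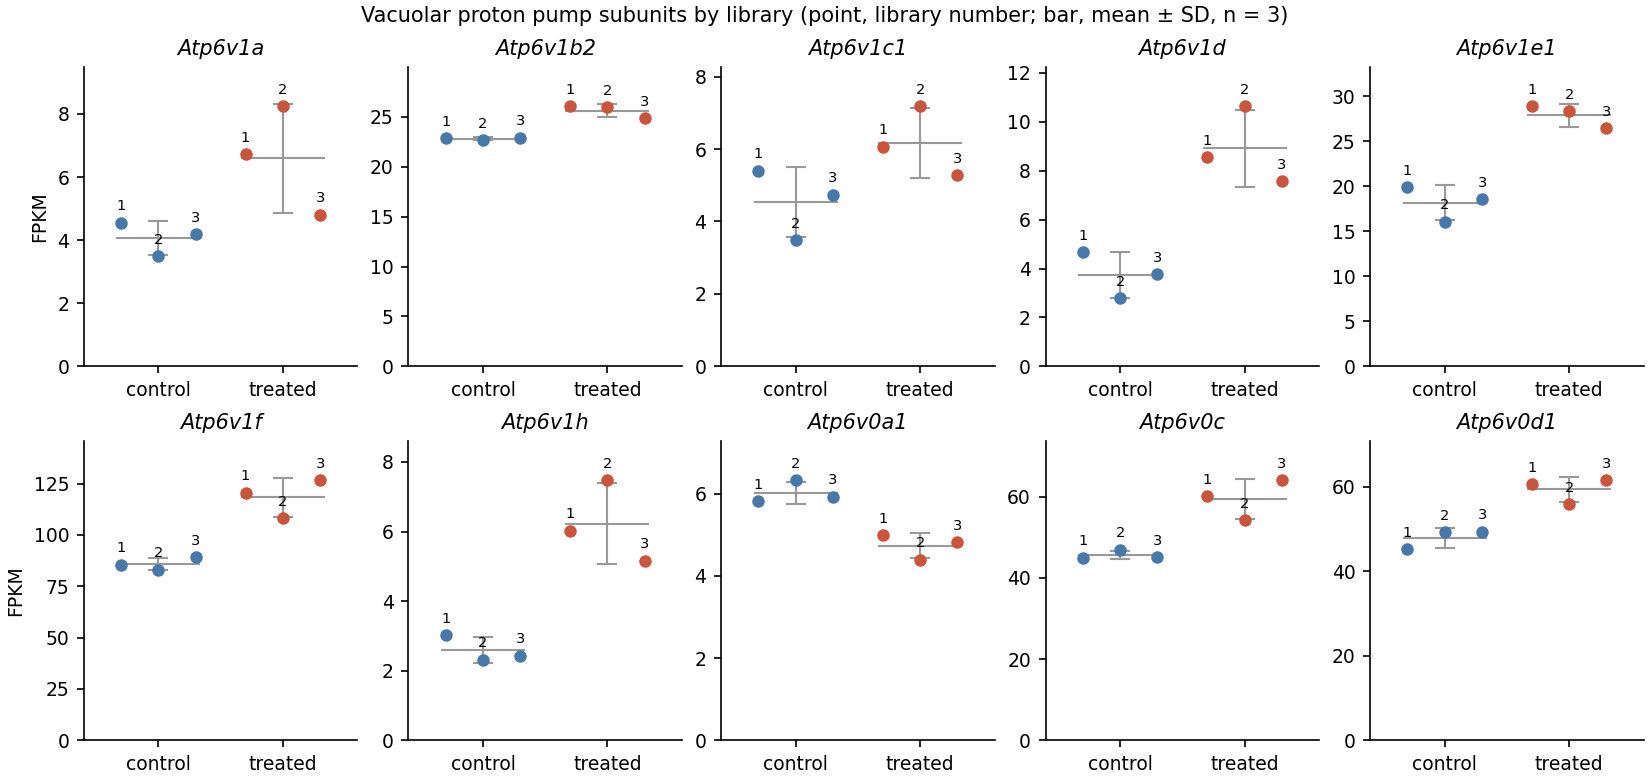
FPKM of each subunit gene (vertical axis, starting at 0, with its own scale in each panel) in the 3 control and 3 treated libraries. Points are libraries with their number, and bars show the mean ± SD (n = 3). Atp6v0a1 is the gene with its treated points below its control points, and for Atp6v1c1 the groups overlap.

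The libraries differed in depth and in a trend with base composition. Estimated counts summed to between 71409968 and 81821380 per control library and to between 62328377 and 70323604 per treated library, and single subunit genes had 1104 to 16253 estimated counts per library. Genes whose longest transcript was richer in GC had lower fold changes, over 10194 rows that averaged 1 FPKM or more (Spearman −0.26, a description, since genes are not independent). The control library numbered 2 had the lowest FPKM of the controls for 7 of the 10 subunit genes. For this reason each of the 10 subunit genes is given below also with a correction for GC content. Each is also given without both libraries numbered 2 where that ends a call or moves a value by over 1.5 times. For other named genes, the corrected value is given where the correction changed a call and in some further cases. Of 7 epithelial and intestinal markers, Krt8 and Krt18 were above 1 FPKM, and Epcam and Cdh1 were at 0 in the 3 control libraries. These 7 markers summed to 65.8 to 76.0 FPKM in control and 162 to 184 FPKM in treated libraries, most of it Krt18. Of 8 immune and phagocyte markers, 6 had a row and 2 were above 1 FPKM, Cd68 (a protein of late endosomes and lysosomes) and Lyz2. Their summed level was 30.4 to 30.8 FPKM in control and 58.5 to 66.8 FPKM in treated libraries, most of it Cd68, and the defining leukocyte gene Ptprc stayed at or under 0.00292 FPKM. Summed markers of osteoclasts and of kidney intercalated cells, which carry large amounts of the pump, reached at most 0.770 and 0.0215 FPKM, and those of endothelium 0.0447 FPKM. Of 4 osteoclast markers 3 had a row. Of 3 markers of intercalated cells 1 had a row, so their level is that of 1 gene. Summed fibroblast and muscle markers, 4 of 5 above 1 FPKM in at least 1 library (Acta2 in control 2 alone), were at 48.6 to 52.8 FPKM in control and 30.04 to 33.3 FPKM in treated libraries, and their part in the results was not tested.

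The levels of the subunit genes spanned a wide range although their products sit in the same complex. In control cells Atp6v1f was highest at 85.9 ± 3.07 FPKM (mean ± SD, n = 3), followed by Atp6v0d1 at 47.9 ± 2.37 and Atp6v0c at 45.7 ± 1.06, whose libraries overlapped. Atp6v1b2 at 22.8 ± 0.147 and Atp6v1e1 at 18.2 ± 1.95 formed a middle tier without overlap. Atp6v0a1 stood at 6.03 ± 0.271 FPKM, above 4 genes whose neighbours in the order overlapped, Atp6v1c1 at 4.54 ± 0.974, Atp6v1a at 4.08 ± 0.532, Atp6v1d at 3.74 ± 0.942 and Atp6v1h at 2.59 ± 0.375. The highest mean was 33.2 times the lowest. In treated cells the range was 25.01 times, and Atp6v0a1 had moved from the sixth to the last place at 4.74 ± 0.307 FPKM, below Atp6v1c1 at 6.17 ± 0.958 without overlap. These levels and places are not corrected for GC content. The 4 genes that came to stand above Atp6v0a1 are those under 46% GC, whose fold changes were smaller with the correction. Across the 10 genes the control level on the log2(FPKM + 1) scale rose with GC content (Pearson 0.93, n = 10) and fell with transcript length (−0.90 on log2 scales), against 0.31 and −0.22 over 10201 rows averaging 1 FPKM or more. All points of these descriptions share the same libraries.

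Of the 2 subunits that form the ATP-binding head, A passed as higher and B did not pass, and the difference between them was not tested. Atp6v1a (ENSMUSG00000052459, chromosome 16, 43905765 to 43960068, minus strand, build not given) encodes the catalytic A subunit. Its control libraries stood at 4.55, 3.499 and 4.19 FPKM and its treated libraries at 6.73, 8.24 and 4.81. All treated values were above all control values, but treated 3 lay close to the controls and treated 2 far above them. The log2 fold change was 0.66 ± 0.16 (SE), with an adjusted p of 0.00861. It was 0.42 with the GC correction (0.00633), and 0.39 without both libraries numbered 2, where the call was lost (0.0618).

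Atp6v1b2 (ENSMUSG00000006273, chromosome 8, 69541298 to 69566363) encodes the B subunit that alternates with A in the head. It stood at 22.8, 22.6 and 22.9 FPKM in control and at 26.1, 25.97 and 24.9 in treated libraries. The treated values were all higher, by a log2 fold change of 0.13 ± 0.06 that did not pass (adjusted p = 0.124). It passed in 8 of 21 alternatives, among them the GC correction at 0.23 (0.00331), scaling by library totals at 0.21 (0.0119) and limma on log2(FPKM + 1) at 0.16 (0.0286). Its kidney and epididymis isoform Atp6v1b1 reached at most 0.0640 FPKM and did not pass, though it did so without control 2, the control library in which it was above 0 (adjusted p = 0.00776). By share, Atp6v1b2 made up 99.9% ± 0.103 of the summed FPKM for this position in control and 99.8% ± 0.0512 in treated libraries.

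The promoter of Atp6v1a is shown because it holds a palindrome bound by the MiT family of transcription factors (TFEB, TFE3, MITF), which are known to drive genes of lysosome formation. RefSeq promoters (build GRCm38.p6) were matched by symbol for 7 of the 10 genes, with 9 start sites in all. TCACGTGA, searched on both strands and containing the shorter E-box CACGTG, was found in the promoters of 2 of these 7 genes, Atp6v1a and Atp6v0d1, and in 0.974% of 32851 promoters searched in the same way. CACGTG alone was in the same 2 genes and in 7.15% of all promoters. The percentages count promoters, while 2 of 7 counts genes, which can have more than 1 start site. The search covered longer promoter sequences than the stretches printed here. The stretches run from 200 bases before the start site to 20 after it, 5′ to 3′ on the minus strand, with the palindrome in capitals. They lie at chr16:44139240-44139459 and chr8:105566045-105566264.
Atp6v1a: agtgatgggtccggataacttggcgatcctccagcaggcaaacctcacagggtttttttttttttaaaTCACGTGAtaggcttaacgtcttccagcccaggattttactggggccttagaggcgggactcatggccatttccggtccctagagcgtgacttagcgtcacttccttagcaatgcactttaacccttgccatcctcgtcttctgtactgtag
Atp6v0d1: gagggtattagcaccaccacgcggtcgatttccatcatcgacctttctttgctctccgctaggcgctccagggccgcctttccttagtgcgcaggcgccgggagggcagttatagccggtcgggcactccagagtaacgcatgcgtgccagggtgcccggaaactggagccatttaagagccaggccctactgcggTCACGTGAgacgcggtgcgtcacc
In Atp6v1a the palindrome began 132 bases before the annotated start, and in Atp6v0d1 it began 4 bases before it and ran across it. A match is a description of these letters and shows neither binding nor a cause of a change.

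The genes for the central stalk rose, Atp6v1d most clearly. Atp6v1d (ENSMUSG00000021114, chromosome 12, 78887499 to 78908412, minus strand) encodes the D subunit, the shaft that turns inside the head. Its control libraries held 4.66, 2.78 and 3.76 FPKM and its treated libraries 8.55, 10.6 and 7.56. The lowest treated library was above the highest control library, and the libraries numbered 2 were the extremes of both groups. The log2 fold change was 1.22 ± 0.17 (2.33-fold, adjusted p = 0.000305), and it was 0.81 with the GC correction (0.000127) and 0.93 without both libraries numbered 2 (0.000790). The call held in all 21 alternatives.

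Atp6v1f (ENSMUSG00000004285, chromosome 6, 29467717 to 29470511), which encodes the F subunit beside D in the stalk, was the most abundant of the 10 genes. It rose from 85.5, 83.03 and 89.1 FPKM in control to 120.5, 108 and 127 in treated libraries, without overlap. The log2 fold change was 0.43 ± 0.08 (adjusted p = 0.00224) and 0.57 with the GC correction. Of the 50-base stretches in its longest transcript, 12.5% also occur in the GENCODE gene AC169506.3, which has no row of its own in the file.

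Genes for the outer stalks and the collar that hold the head still also rose. Atp6v1e1 (ENSMUSG00000019210, chromosome 6, 120771266 to 120799754, minus strand), for the E subunit of the outer stalks, stood at 19.9, 16.1 and 18.6 FPKM in control and 28.9, 28.3 and 26.5 in treated libraries. Its groups were far apart, with a log2 fold change of 0.58 ± 0.08 (adjusted p = 0.000207), 0.68 with the GC correction. The testis isoform Atp6v1e2 was at or under 0.0768 FPKM. Atp6v1g1, for the G subunit that pairs with E and not among the 10 genes, rose from 68.5, 63.6 and 63.5 FPKM to 113, 111 and 111 (log2 fold change 0.74 ± 0.07, adjusted p = 1.96e-05), and held its call in 20 of 20 alternatives. Atp6v1g2, the neuronal isoform, was at 0.431 ± 0.0320 and 0.721 ± 0.104 FPKM (0.70 ± 0.23, adjusted p = 0.0338), a call lost without control 1, 2 or 3 or treated 1 or 2, at adjusted p-values from 0.0590 to 0.130. It made up 0.656% ± 0.0269 of the FPKM for this position in control and 0.642% ± 0.0882 in treated libraries.

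Atp6v1h (ENSMUSG00000033793, chromosome 1, 5140241 to 5232752), for the H subunit that is needed for activity and silences V1 when it is detached, was the least abundant gene in control cells. Its control values of 3.01, 2.31 and 2.43 FPKM rose to 6.02, 7.48 and 5.17 FPKM. No treated library came near the controls, and the log2 fold change of 1.23 ± 0.14 (2.35-fold, adjusted p = 6.55e-05) was the largest of the 10 in the uncorrected fit. Its longest transcript also had the lowest GC content, 37.6%, and with the GC correction the value was 0.35 (adjusted p = 0.00863), less than those of 6 of the other genes that rose. The gene Rgs20, at a mean of 2.52 FPKM, overlaps it on the opposite strand, and though the library protocol marks the strand, no source used here says whether the counting used it.

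Atp6v1c1 (ENSMUSG00000022295, chromosome 15, 38662177 to 38692690), for the C subunit that leaves the pump when V1 and V0 come apart, gave the weakest of the calls. It stood at 5.40, 3.49 and 4.74 FPKM in control and at 6.06, 7.18 and 5.27 in treated libraries, and treated 3 lay below control 1. The log2 fold change was 0.41 ± 0.15 (adjusted p = 0.0475). The call was lost in 13 of 21 alternatives, among them the GC correction at 0.18 (0.126), and without control 2 at 0.25 (0.165), control 3 at 0.41 (0.117), treated 1 at 0.42 (0.104), treated 2 at 0.28 (0.213) and treated 3 at 0.49 (0.0510). Without both libraries numbered 2 it was 0.15 (0.311). The other C isoform, Atp6v1c2, was at or under 0.131 FPKM in every library.

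**Figure D2:**
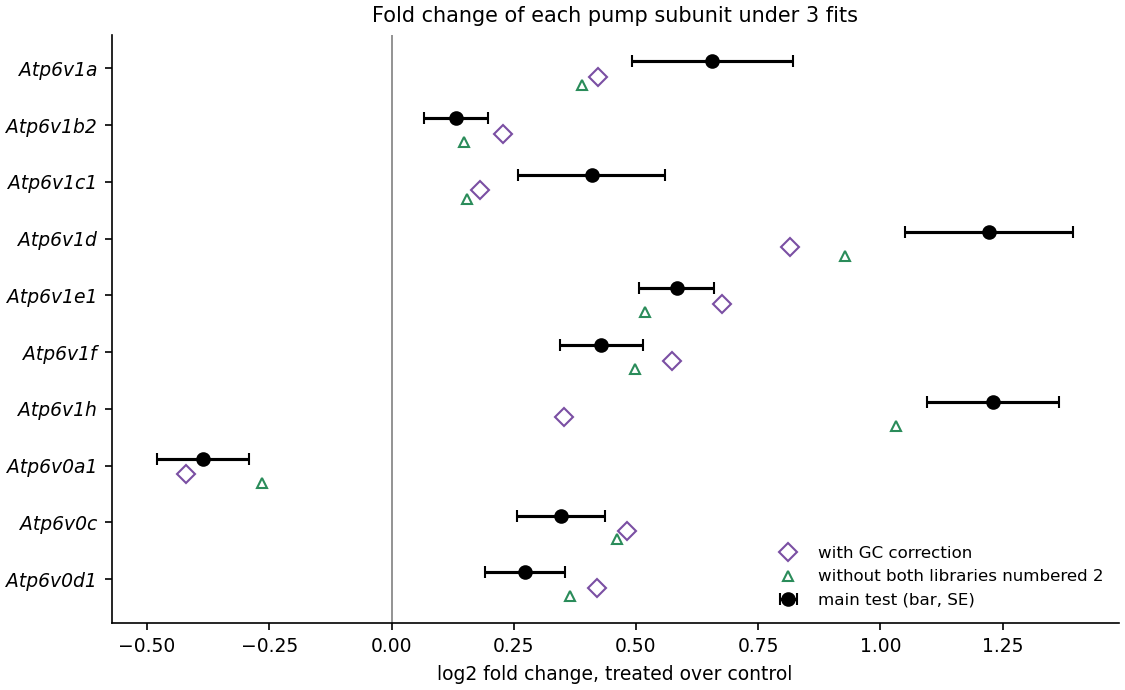
Log2 fold change of treated over control cells (horizontal axis) for the 10 subunit genes. Filled points with bars show the main test and its SE, open diamonds the fit with the GC correction and open triangles the fit without both libraries numbered 2. Atp6v1h moves from 1.23 to 0.35 with the correction, and Atp6v0a1 stays below 0 in all 3 fits.

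In the V0 sector the ring gene Atp6v0c and the d subunit gene Atp6v0d1 rose while the a subunit gene Atp6v0a1 fell. Atp6v0c (ENSMUSG00000024121, chromosome 17, 24382840 to 24388676, minus strand) encodes the proteolipid that makes up most of the ring and carries the proton on a glutamate. It held 45.04, 46.9 and 45.1 FPKM in control and 60.2, 54.2 and 64.2 in treated libraries, with no overlap. The log2 fold change was 0.35 ± 0.09 (adjusted p = 0.0104) and 0.48 with the GC correction. The call was lost without control 3, at 0.31 (0.0581).

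The coding sequence of Atp6v0c is nearly identical to a processed pseudogene, so reads from it could be counted in either row, and both sequences are shown for that reason. Atp6v0c-ps2 (ENSMUSG00000080242, chromosome 6, 37783021 to 37783485) has 465 bases, all of which align to the 468-base open reading frame of Atp6v0c, with 1 differing base (99.8% identity). Both stretches of 60 bases around it run from base 81 to 140, counted from 1 at the first base of the start codon of Atp6v0c, 5′ to 3′, and the capital marks the difference, T111C, with the base of Atp6v0c first.
Atp6v0c: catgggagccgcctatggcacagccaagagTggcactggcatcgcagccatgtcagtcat
Atp6v0c-ps2: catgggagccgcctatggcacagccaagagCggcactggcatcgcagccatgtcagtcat
The deposited table gives the pseudogene 256, 261 and 236 FPKM in control and 328, 297 and 347 in treated libraries, so that it took 84.6% ± 0.576 and 84.5% ± 0.0866 of the summed FPKM of both rows. This is not a share of reads, since FPKM divides by length and the longest transcript of Atp6v0c has 2567 bases. By estimated counts Atp6v0c was above the pseudogene in every library. In control libraries it had 12201, 13677 and 11479 counts, against 9537, 10469 and 8248 for the pseudogene. Its log2 fold change of 0.33 ± 0.09 (adjusted p = 0.0133) lay beside that of the parent gene. With the counts of both rows summed, an alternative chosen after the data were seen, the value was 0.34 ± 0.09 (adjusted p = 0.0119). The level of Atp6v0c in FPKM therefore depends on how reads were shared out, while its log2 fold change was 0.35 alone and 0.34 in the sum. Across all 10 genes, Atp6v0c and Atp6v1f shared 12.2% and 12.5% of their 50-base stretches with other GENCODE genes (for Atp6v0c, its pseudogenes Atp6v0c-ps1 and Atp6v0c-ps2), and the other 8 shared at most 0.956%.

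Atp6v0d1 (ENSMUSG00000013160, chromosome 8, 106251097 to 106292679, minus strand) encodes the d subunit that couples the stalk to the ring, and it is the second gene with the palindrome printed above. Its control libraries stood at 45.2, 49.2 and 49.4 FPKM and its treated libraries at 60.6, 55.9 and 61.6, again without overlap. The log2 fold change of 0.27 ± 0.08 (adjusted p = 0.0206) became 0.42 with the GC correction (0.000328). The call was lost without control 1 at 0.20 (0.109), without control 3 at 0.27 (0.0714) and without treated 1 at 0.26 (0.0795). Atp6v0b, a second proteolipid of the ring that is not among the 10 genes, rose from 92.0, 97.3 and 95.9 FPKM to 121, 109 and 128 (log2 fold change 0.29 ± 0.09, adjusted p = 0.0226). That call was lost without control 1 at 0.24 (0.102), control 3 at 0.27 (0.0890) and treated 1 at 0.29 (0.0789).

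Atp6v0a1 (ENSMUSG00000019302, chromosome 11, 100900278 to 100954545) encodes the a1 isoform of the a subunit, the fixed channel protein that also directs the pump to its organelle. It was the gene of the 10 that fell, from 5.83, 6.34 and 5.93 FPKM in control to 4.996, 4.40 and 4.82 in treated libraries. All treated values were below all control values, and the log2 fold change was −0.39 ± 0.09 (adjusted p = 0.00740). It was −0.42 with the GC correction (0.0145), and −0.27 without both libraries numbered 2, where the call was lost (0.0530). The sign was negative in all 21 alternatives.

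The isoforms of the a subunit shifted against each other. Tcirg1, which encodes the a3 isoform known from osteoclasts and from lysosomes of other cells, rose from 26.2, 25.4 and 22.8 FPKM to 33.8, 30.4 and 36.1 (log2 fold change 0.40 ± 0.10, adjusted p = 0.00723). Its call was lost without control 3, at 0.31 (0.0541). Atp6v0a2, for the a2 isoform of the Golgi and endosomes, fell from 5.89, 5.93 and 5.88 FPKM to 4.64, 4.63 and 4.36 (−0.41 ± 0.08, adjusted p = 0.00184). The kidney isoform Atp6v0a4 was at or under 0.0542 FPKM. Per library, Tcirg1 took 69.0%, 67.3% and 65.8% of the summed FPKM of the a isoforms in control and 77.8%, 77.04% and 79.6% in treated libraries. Atp6v0a1 went from 16.4% ± 0.951 to 11.1% ± 0.439 and Atp6v0a2 from 16.1% ± 0.799 to 10.7% ± 1.05 (SD, n = 3). None of these 3 shares overlapped between the groups, and no test was run on shares. Leaving out any 1 library changed the rise of the Tcirg1 share by less than the SD between libraries.

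**Figure D3:**
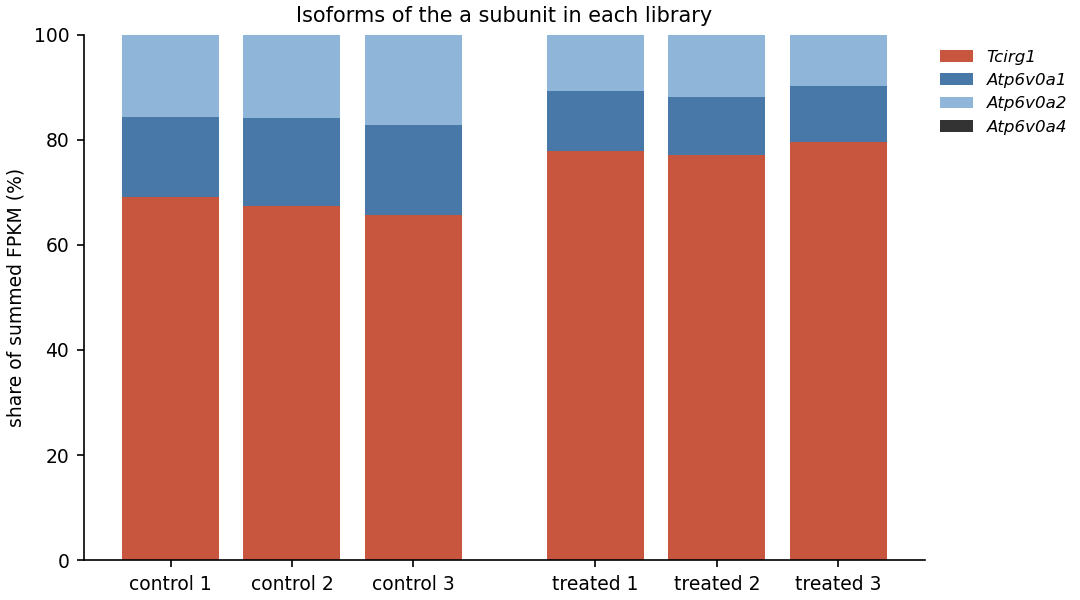
Share of the summed FPKM (vertical axis, percent) taken by each isoform of the a subunit in the 3 control and 3 treated libraries. Tcirg1 takes 65.8% to 69.0% in control and 77.0% to 79.6% in treated libraries, and Atp6v0a4 is too low to be seen.

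At position e of the V0 sector neither isoform passed. Atp6v0e stood at 48.2 ± 2.88 FPKM in control and 53.2 ± 2.82 in treated libraries and did not pass (log2 fold change 0.11 ± 0.09, adjusted p = 0.371). Its paralogue Atp6v0e2 had 26.7 ± 2.40 FPKM in control and 23.8 ± 2.31 in treated libraries, which did not pass either (−0.20 ± 0.11, adjusted p = 0.176). The share of Atp6v0e in their sum was 64.4% ± 0.737 in control and 69.1% ± 1.06 in treated libraries, without overlap. Atp6v0e2 passed without treated 3, at −0.31 (0.0376). Atp6v0e depended on the scaling and the correction, since it passed at 0.23 with upper-quartile scaling (0.0467) and was at −0.09 with the GC correction (0.646). With that correction Atp6v0e2 was at −0.05 (0.659), so the isoforms no longer moved apart, and their shares above are uncorrected.

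Both accessory proteins of the pump had higher RNA. Atp6ap1, whose product helps to assemble V0, rose from 38.7, 44.4 and 45.7 FPKM to 62.9, 59.5 and 64.8 (log2 fold change 0.50 ± 0.09, adjusted p = 0.00158), with its call held in 20 of 20 alternatives. Atp6ap2, also known as the prorenin receptor, went from 6.86, 5.498 and 5.04 FPKM to 9.52, 12.5 and 7.92 (0.74 ± 0.17, adjusted p = 0.00489), but to 0.12 with the GC correction (0.427). Of the 15 listed other subunits, isoforms and accessory proteins, 13 had a row and 11 were tested. Of these 11, 6 were higher, 1 was lower and 4 did not pass, beside 23.0% higher and 23.5% lower of all rows. The median of the 11 was 0.40, or 0.42 with the GC correction. With that correction 5 were higher and 1 was lower, beside 23.0% and 26.8% of all rows in that fit. Without the correction, the count of those higher was 3 when control 3 was left out, 4 without control 1 and 4 without treated 1. Over all rows the count of those higher went from 3735 to 3138, 3572 and 2832 in these 3 fits.

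The fold changes of the 10 genes went with GC content, and lay closer together after the correction. Over the 10 genes the log2 fold change and the GC content of the longest transcript had a Pearson correlation of −0.61, and with the corrected fold changes it was 0.07 (n = 10 genes in the same libraries, given as a description). The correction takes out each library's trend with this same GC content, so the fall in the correlation was largely set by the method. The 4 genes under 46% GC, Atp6v1h, Atp6v1d, Atp6v1a and Atp6v1c1, had lower values with the correction, while Atp6v1e1, Atp6v1f, Atp6v1b2, Atp6v0c and Atp6v0d1 had higher ones. After correction 8 of the 10 genes were higher and 1 was lower, beside 23.0% and 26.8% of 15760 rows, with Atp6v1b2 called in the place of Atp6v1c1. The median of the 10 stayed at 0.42 while that of all rows was 0.0035, and the V1 and V0 medians were both 0.42. Whether the trend with GC arose in the cells or in the making of the libraries was not tested.

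**Figure D4:**
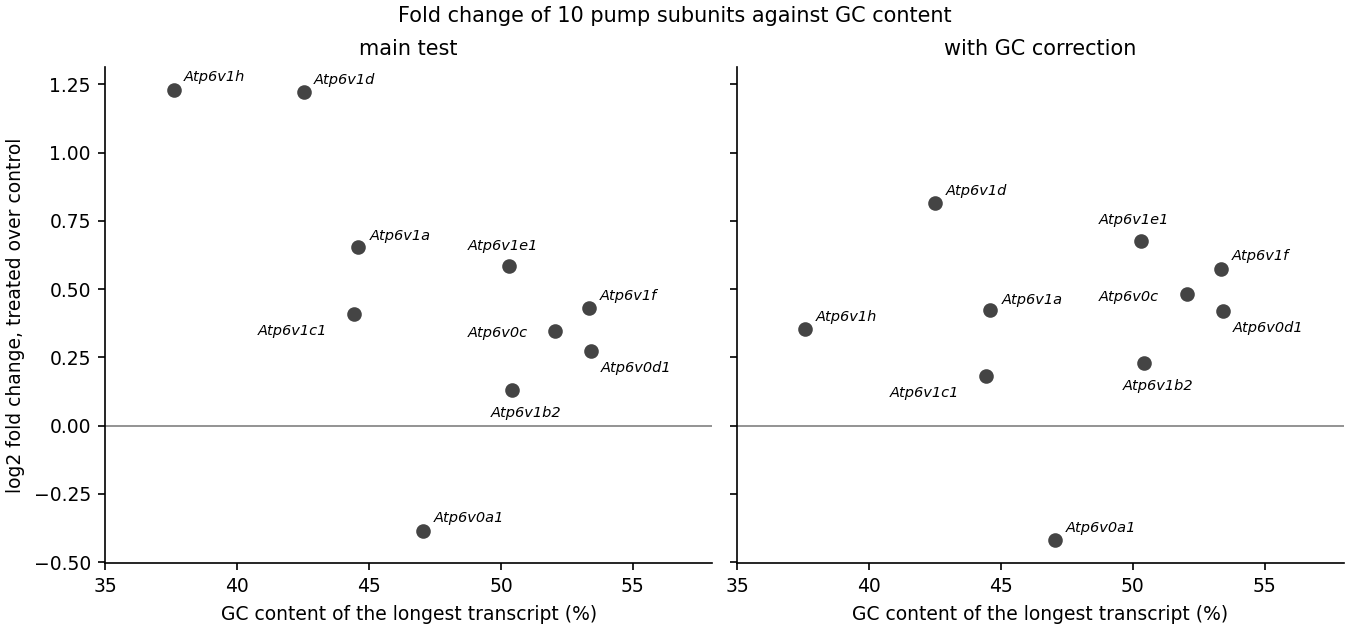
Log2 fold change (vertical axis) against the GC content of the longest GENCODE M21 transcript (horizontal axis, percent) for the 10 subunit genes, in the main test on the left and with the GC correction on the right. Atp6v1h at 37.6% GC drops from 1.23 to 0.35, and Atp6v0a1 lies below 0 on both sides.

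Among genes that assemble or regulate the pump, most did not pass. Of 12 listed, 11 were tested, 2 were higher, 1 was lower and 8 did not pass, where 46.6% of all rows passed in either direction. Several of those that did not pass averaged under 1 FPKM in both groups. The median was 0.27, and −0.16 with the GC correction. With that correction 2 were higher and 2 lower, beside 23.0% and 26.8% of all rows in that fit. With upper-quartile scaling 4 were higher, as were 4688 of all rows. Rogdi, a partner of the rabconnectin proteins that help V1 and V0 to join, fell from 10.3 ± 0.673 to 6.75 ± 0.478 FPKM (log2 fold change −0.64 ± 0.11, adjusted p = 0.00119). Meak7, which carries a TLDc domain of the kind that binds the pump, rose from 5.79 ± 0.272 to 8.55 ± 0.932 FPKM (0.53 ± 0.11, adjusted p = 0.00357). Tbc1d24, another TLDc gene, was low, at 0.147 ± 0.0372 and 0.260 ± 0.0301 FPKM (0.79 ± 0.26, adjusted p = 0.0305), and lost its call without control 1 at 0.60 (0.0974), control 2 at 0.78 (0.0678), treated 2 at 0.75 (0.0842) and treated 3 at 0.70 (0.0929). Tmem199, an assembly factor of V0, stood at 10.6 ± 1.44 and 10.96 ± 1.01 FPKM (adjusted p = 0.966).

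Ion pathways of the same organelles moved both ways. Of 14 listed genes 12 were tested, 3 were higher and 4 lower, with a median of −0.02, and these counts lie near the shares over all rows (23.0% higher and 23.5% lower). Tpcn1 and Tpcn2, for the endolysosomal cation channels TPC1 and TPC2, fell from 10.03 ± 0.498 to 5.82 ± 0.566 FPKM (log2 fold change −0.82 ± 0.10, adjusted p = 0.000111) and from 3.03 ± 0.146 to 2.03 ± 0.0644 FPKM (−0.61 ± 0.11, adjusted p = 0.00170). Mcoln1, for the lysosomal calcium and iron channel TRPML1, rose from 4.49 ± 0.334 to 6.05 ± 0.0800 FPKM (0.39 ± 0.09, adjusted p = 0.00601). Slc11a2, for the proton-coupled iron carrier DMT1, fell from 8.90 ± 0.0879 to 6.78 ± 0.131 FPKM (−0.43 ± 0.07, adjusted p = 0.000963). Clcn6, a chloride and proton exchanger of late endosomes, stood at 3.78 ± 0.387 and 3.69 ± 0.370 FPKM (adjusted p = 0.629).

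Genes of nutrient sensing at the lysosome also moved both ways, with 8 higher and 4 lower of 17 tested (median 0.17), beside 23.0% and 23.5% of all rows. Mtor, for the kinase itself, fell from 8.83 ± 0.343 to 6.31 ± 0.164 FPKM (log2 fold change −0.52 ± 0.07, adjusted p = 0.000343). Tsc2, for a brake on mTORC1, fell from 10.3 ± 0.521 to 5.62 ± 0.263 FPKM (−0.90 ± 0.08, adjusted p = 1.91e-05). Flcn, whose product folliculin acts on the Rag GTPases, rose from 6.30 ± 0.256 to 9.40 ± 0.337 FPKM (0.54 ± 0.09, adjusted p = 0.000630). Its partner gene Fnip1 was low and rose from 0.303 ± 0.0601 to 0.998 ± 0.382 FPKM (1.68 ± 0.27, adjusted p = 0.000719), or by 0.89 with the GC correction. Lamtor5, a subunit of the Ragulator complex that meets the pump at the lysosome, had 55.6 ± 1.41 FPKM in control and 63.0 ± 2.32 in treated libraries (0.15 ± 0.08, adjusted p = 0.162). It passed with the GC correction at 0.23 (0.0275).

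The RNA of the MiT factors themselves gave no call that held in every alternative. Tfeb stood at 5.13 ± 0.523 FPKM in control and 4.36 ± 0.322 in treated libraries and did not pass (log2 fold change −0.27 ± 0.12, adjusted p = 0.0873), though it passed without control 1 at −0.38 (0.0288) and with the GC correction at −0.25 (0.0317). Tfe3 was at 9.87 ± 0.420 FPKM in control and lower in treated libraries at 8.57 ± 0.397 (−0.24 ± 0.08, adjusted p = 0.0302). This call was lost with upper-quartile scaling at −0.11 (0.226), with the GC correction at −0.10 (0.189), without control 2 at −0.20 (0.0847), treated 1 at −0.26 (0.0728) and treated 2 at −0.21 (0.0524). Mitf was low, at 0.339 ± 0.0700 and 0.559 ± 0.0406 FPKM (0.69 ± 0.21, adjusted p = 0.0197). Its call was lost with the GC correction at 0.37 (0.134) and without control 1 at 0.63 (0.0650), control 2 at 0.57 (0.0696), treated 1 at 0.69 (0.0601) or treated 2 at 0.63 (0.0689).

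Proteins of the lysosome that work in the acid made by the pump had higher RNA more often than lower. Of 23 listed hydrolases and membrane proteins, all tested, 18 were higher and 1 was lower (median 0.46), beside 23.0% and 23.5% of all rows. The count of those higher was 14 without control 3, where the count over all rows went from 3735 to 3138. With the GC correction 16 were higher and 0 lower (median 0.53), beside 23.0% and 26.8% of all rows in that fit. Neu1, a sialidase, rose from 3.25, 2.64 and 2.89 FPKM to 7.76, 6.88 and 8.19 (log2 fold change 1.35 ± 0.12, adjusted p = 1.85e-05). Ctsa, the protective protein that stabilises it, rose from 20.4 ± 0.337 to 39.2 ± 2.34 FPKM (0.91 ± 0.08, adjusted p = 2.02e-05). Asah1, for acid ceramidase, rose from 16.1 ± 0.920 to 29.8 ± 3.09 FPKM (0.86 ± 0.08, adjusted p = 2.58e-05), or by 0.53 with the GC correction. The tetraspanin gene Cd63 had 352 ± 5.31 FPKM in control and 321 ± 28.0 in treated libraries (−0.17 ± 0.09, adjusted p = 0.150). It passed as lower without treated 3, at −0.26 (0.00632).

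Genes listed for the transport of acid and bicarbonate at the plasma membrane, with carbonic anhydrases among them, moved both ways. Of 9 tested, 3 were higher and 3 lower, beside 23.0% and 23.5% of all rows. With the GC correction 4 were higher and 4 lower, beside 23.0% and 26.8% of all rows in that fit. Car9, for a carbonic anhydrase on the cell surface, rose from 17.8, 20.2 and 21.3 FPKM to 63.7, 60.01 and 69.9 (1.67 ± 0.10, adjusted p = 2.80e-06). Bsg, for basigin, the chaperone of the lactate and proton carriers, rose from 607 ± 30.3 to 1085 ± 69.5 FPKM (log2 fold change 0.80 ± 0.09, adjusted p = 6.46e-05). Slc4a2, for an anion exchanger, fell from 13.4 ± 0.782 to 7.77 ± 0.479 FPKM (−0.82 ± 0.09, adjusted p = 6.08e-05), and the bicarbonate importer gene Slc4a7 was low and rose from 0.243 ± 0.0553 to 0.641 ± 0.176 FPKM (1.35 ± 0.23, adjusted p = 0.000909), or by 0.83 with the GC correction. Slc16a1, for the lactate carrier MCT1, had 15.6 ± 1.61 FPKM in control and 15.2 ± 2.81 in treated libraries (adjusted p = 0.615). It passed as lower with the GC correction, at −0.46 (0.000168).

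**Figure D5:**
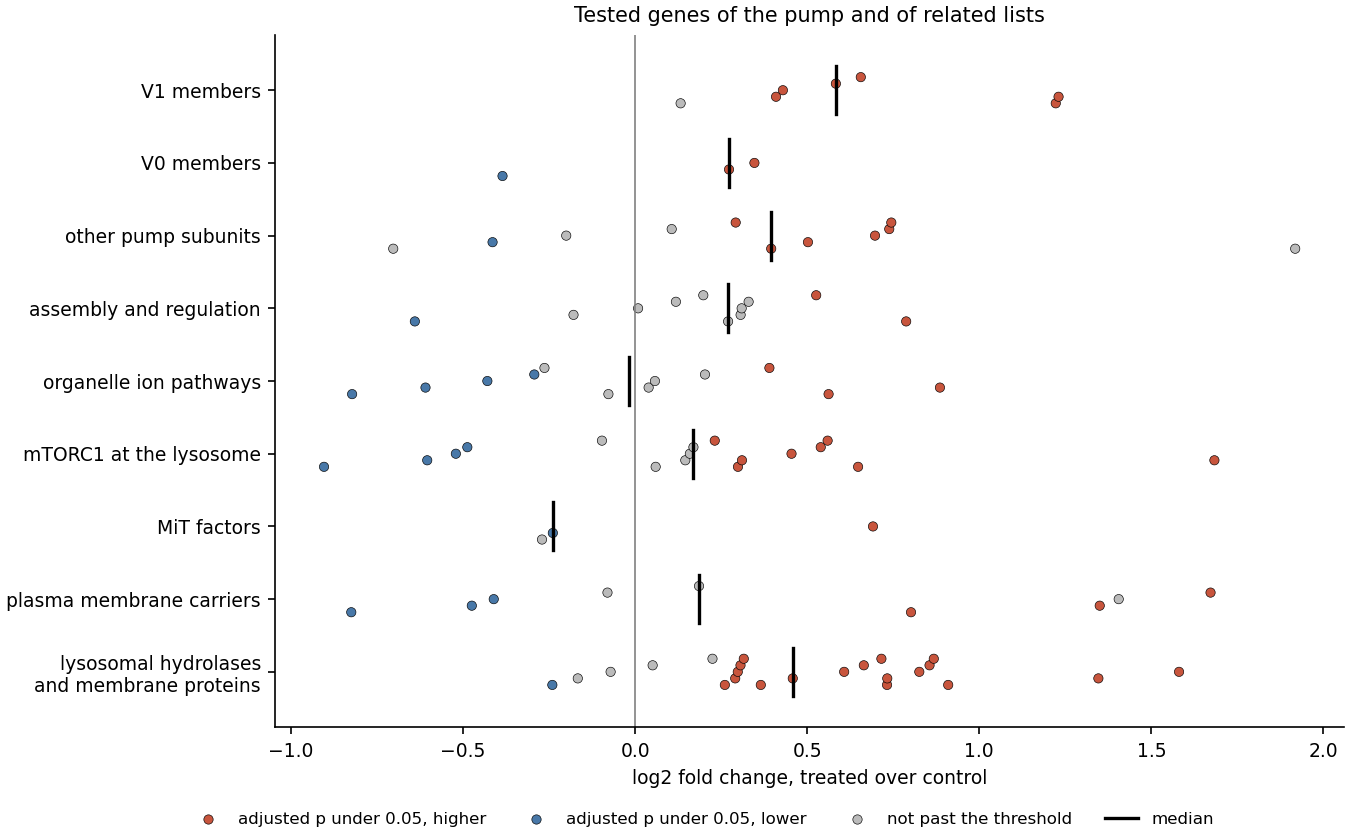
Log2 fold change of treated over control cells (horizontal axis) for every tested gene of the pump and of 7 related lists (rows). Colours mark genes higher or lower at an adjusted p under 0.05, grey those that did not pass, and black lines the medians. The V1 row lies to the right of 0 in full, at a median of 0.58, and the row of ion pathways is spread around 0.

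Over the 6 libraries, the profile nearest to the median of the 10 genes, on the log2(FPKM + 1) scale centred on each gene's mean, was that of Rps6, with a root mean square distance of 0.0358, followed by Vill at 0.0394 and Ube2a at 0.0410, among 5551 rows averaging 5 FPKM or more. Their log2 fold changes were 0.46, 0.51 and 0.53.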

How the data were processed

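Per the labels' protocols, poly(A) RNA went into dUTP strand-marked libraries, read from both ends on an Illumina NovaSeq. Tools named in the submitters' processing notes, with no role for each, are StringTie 2.1.6, HISAT2 2.2.1, cutadapt 1.9, edgeR and DESeq2. Per the file headers, the authors deposited FPKM and a count per gene and library; the sources used here give no genome build, annotation release or strand setting. The authors deposited estimated counts, not raw ones, though written as whole numbers: count over FPKM hardly varied across libraries (median CV 0.0397% over 9971 rows), and the value 4 occurred 4054 times, against 2604 and 2475 for 3 and 5. Of 23981 rows matched to GENCODE M21 (GRCm38), 441 had the same start and end, so gene coordinates are the file's own and promoter coordinates are GRCm38.p6.

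Treated and control libraries were compared with the quasi-likelihood test of edgeR 4.0.16 (R 4.3.3), with its default filter, TMM scaling, 2-sided, and Benjamini-Hochberg adjustment over 16212 rows, with a threshold of 0.05. SEs are the absolute log2 fold change over the square root of F. Alternatives were DESeq2 1.42.0, limma 3.58.1 on log2(FPKM + 1), other scalings, filters and pseudocounts, counts divided by 4, a GC correction (loess per library, span 0.4, GC known for 97.2% of tested rows), a replicate block, libraries left out, and a sum with the pseudogene row. Shared sequence was counted as 50-base stretches of each longest transcript in GENCODE M21 found in other genes. In simulated treated against control counts for 16212 genes, edgeR called 66% of 100 genes changed 2-fold, 82% of 100 changed 4-fold and 16 of 16012 unchanged genes.

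The members and lists were chosen with earlier results of these data known. All 10 members are named. From each list come up to 4 genes past the threshold with the smallest p and the most abundant that did not pass, while every other pump subunit may be named. 1 gene taken by this rule is not reported here. Similar profiles are the 3 nearest.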

Additional observations from a re-analysis of the deposited data

How the results depend on the processing

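None of the 10 subunit genes changed sign in any alternative in which it was tested (21 each, and 20 for Atp6v1h, which the minimum mean FPKM of 5 left out). Atp6v1d, Atp6v1e1, Atp6v1f and Atp6v1h held their calls in all of them. Of 16212 rows, 7548 passed (3735 higher, 3813 lower), and with limma on rows averaging 5 FPKM or more it was 4363 (1835 and 2528), a fit with fewer rows. The number of subunit genes called higher was 8, and 5 to 7 with 1 library left out, lowest without control 3. Calls fell over all rows too, from 3735 higher to between 2832 (without treated 1) and 3572 (without control 1), with 3138 without control 3. The number of subunit genes called lower was 1, and 0 without both libraries numbered 2, where 3299 of all rows were lower. The median log2 fold change of the 10 genes moved from 0.42 to 0.49 with library totals only and to 0.54 with upper-quartile scaling, beside 0.06, 0.13 and 0.18 for all rows. The numbers were not taken as pairs, since nothing in the labels says that a number is shared between groups. Deviations of same-numbered libraries from their group means had correlations of 0.04, −0.10 and 0.0065. Those of libraries with unlike numbers ran from −0.09 to 0.08. With the replicate block 6275 rows passed, and Atp6v1c1 at 0.42 (adjusted p = 0.0870) and Atp6v0d1 at 0.27 (0.0658) were not called. Single subunit genes had at least 1104 estimated counts in every library. Precision for the low list genes Mitf, Tbc1d24 and Atp6v1g2, all under 1 FPKM, was lower, with SEs of 0.21 to 0.26. Without both libraries numbered 2, Atp6v1g2 (adjusted p = 0.112), Tbc1d24 (0.121), Mitf (0.128) and Tfe3 (0.172) lost their calls. In the same fit Atp6v1b1 passed (0.0131), and Atp6v0e2 moved from −0.20 to −0.05.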
